A study of Mus musculus with 4 samples.

Results

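The 32 genes described here encode enzymes that make serine, load folate with one-carbon units and build the purine and pyrimidine nucleotides of RNA and DNA. They were taken as a list of gene symbols, Phgdh, Psat1, Psph, Shmt1, Shmt2, Mthfd1, Mthfd1l, Mthfd2, Ppat, Gart, Pfas, Paics, Adsl, Atic, Adss, Impdh1, Impdh2, Gmps, Cad, Dhodh, Umps, Ctps, Ctps2, Rrm1, Rrm2, Tyms, Dut, Dck, Tk1, Hprt, Nme1 and Nme2, and matched to the Ensembl identifiers of the count tables. All 32 symbols were found, among 39179 identifiers of which 37607 have a symbol in the annotation used. The rule is a list of symbols with no threshold on a measured value, drawn up with earlier results of these data known. All 32 genes were abundant enough to be tested, with 44 to 1807 read counts in a library.

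The study compared T follicular helper (Tfh) cells, the CD4 T cells that help B cells in germinal centres, with other activated T cells of the same antigen specificity. Both groups were T cells of OT-II mice, whose transgenic T cell receptor recognises ovalbumin, marked by Thy-1.1 and transferred into C57BL/6 mice that were then given nitrophenol-coupled ovalbumin under the skin. At day 8 the transferred cells of pooled inguinal nodes were sorted from the CD44hi fraction as CXCR5+ PD-1+ Tfh cells or as CXCR5- PD-1- non-Tfh cells, and stranded total RNA libraries were sequenced. Each group has 2 libraries, T32 and T53. The ages of the mice are not given, nor is the meaning of the numbers T32 and T53, so the p-values measure the spread between these libraries only, which may be technical.

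Nucleotides are made either from small precursors (de novo synthesis) or by re-use of bases and nucleosides (salvage). De novo synthesis draws on glycine and on formyl groups carried by folate, and much of that supply comes from serine, which donates its side-chain carbon to folate. Activated T cells are known to raise these enzymes when they grow and divide, because replication and ribosome synthesis consume nucleotides. Purine rings are assembled step by step on ribose phosphate up to IMP, from which separate branches lead to AMP and GMP, whereas the pyrimidine ring is closed before the ribose phosphate is attached.

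Total counts were 12354113 and 5725358 in the Tfh libraries T32 and T53, and 13360563 and 8636056 in the non-Tfh libraries T32 and T53. A single read count corresponded to 0.0809 and 0.175 CPM, the read count scaled to library size, in the Tfh libraries and 0.0748 and 0.116 CPM in the non-Tfh libraries. The genes of the sort followed the labels. Cxcr5 had 747 and 712 CPM in Tfh cells, against 52.6 and 56.0 CPM in non-Tfh cells, and Pdcd1, which encodes PD-1, had 536 and 576 CPM against 57.0 and 53.4 CPM. The 10 T cell markers summed to 10109 and 9024 CPM in Tfh cells and 9032 and 8305 CPM in non-Tfh cells. The B cell markers that could be matched, 9 genes, summed to 338 and 326 CPM in Tfh cells and 170 and 145 CPM in non-Tfh cells. Of the 3 B cell markers that could be tested, Cd22 (140 and 134 CPM in Tfh cells, against 9.61 and 14.8 CPM in non-Tfh cells) and Pax5 (5.11 and 5.24 CPM in Tfh cells, against 0 and 0.450 CPM in non-Tfh cells) were called higher. Ighm, at 193 and 185 CPM in Tfh cells, against 158 and 126 CPM in non-Tfh cells, was not called. The 6 other matched B cell markers had at most 20 counts in any library. Of 3 tested germinal centre B cell markers, Fas and S1pr2 were called higher in Tfh cells. Mybl1 went the other way, with a log2 fold change of -0.80 and both Tfh libraries below both non-Tfh libraries, and was not called. The part of these markers' transcripts in the results was not tested. Granulocyte and erythroid markers summed to at most 0.225 CPM in any library.

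The purine enzyme gene Adss and the pyrimidine enzyme gene Cad had lower transcript levels in Tfh cells than in non-Tfh cells, and the salvage kinase gene Dck had a higher one. These 3 of the 32 genes passed edgeR's quasi-likelihood test at an adjusted p of 0.05, with p-values adjusted over all 11702 genes tested. Adss and Cad fell, which is 2 of 32 genes where 4.02% of all genes tested fell. Dck rose, which is 1 of 32 genes where 4.47% of all genes tested rose. These counts of calls are close to those of any gene. An unadjusted p under 0.05 was more frequent among the 32 genes, with 14 of 32 against 2571 of the 11702 genes tested. This fit does not pair libraries of the same number. With the number as a block in the fit, 10 of the 32 genes fell and 2 rose, while 1051 and 1069 of the 11702 genes tested did. Below, a gene is said to be called or not by the edgeR fit of all 4 libraries without the block, unless another tool or setting is named.

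The direction was more one-sided than the calls. Both Tfh libraries lay below both non-Tfh libraries for 16 of the 32 genes, where 25.6% of all genes tested did so. Both Tfh libraries lay above both non-Tfh libraries for 4 of the 32 genes, namely Psat1, Mthfd2, Ctps2 and Dck, where 26.6% of all genes tested did so. The log2 fold change of Tfh over non-Tfh was negative for 25 of the 32 genes, and its median was -0.32, against 50.7% negative and a median of -0.01 over all genes tested. The median depended on the non-Tfh library T32: without that library it was -0.08, and without non-Tfh T53 it was -0.54. Fewer cells that make a transcript and less of it per cell cannot be told apart in bulk RNA.

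**Figure D1:**
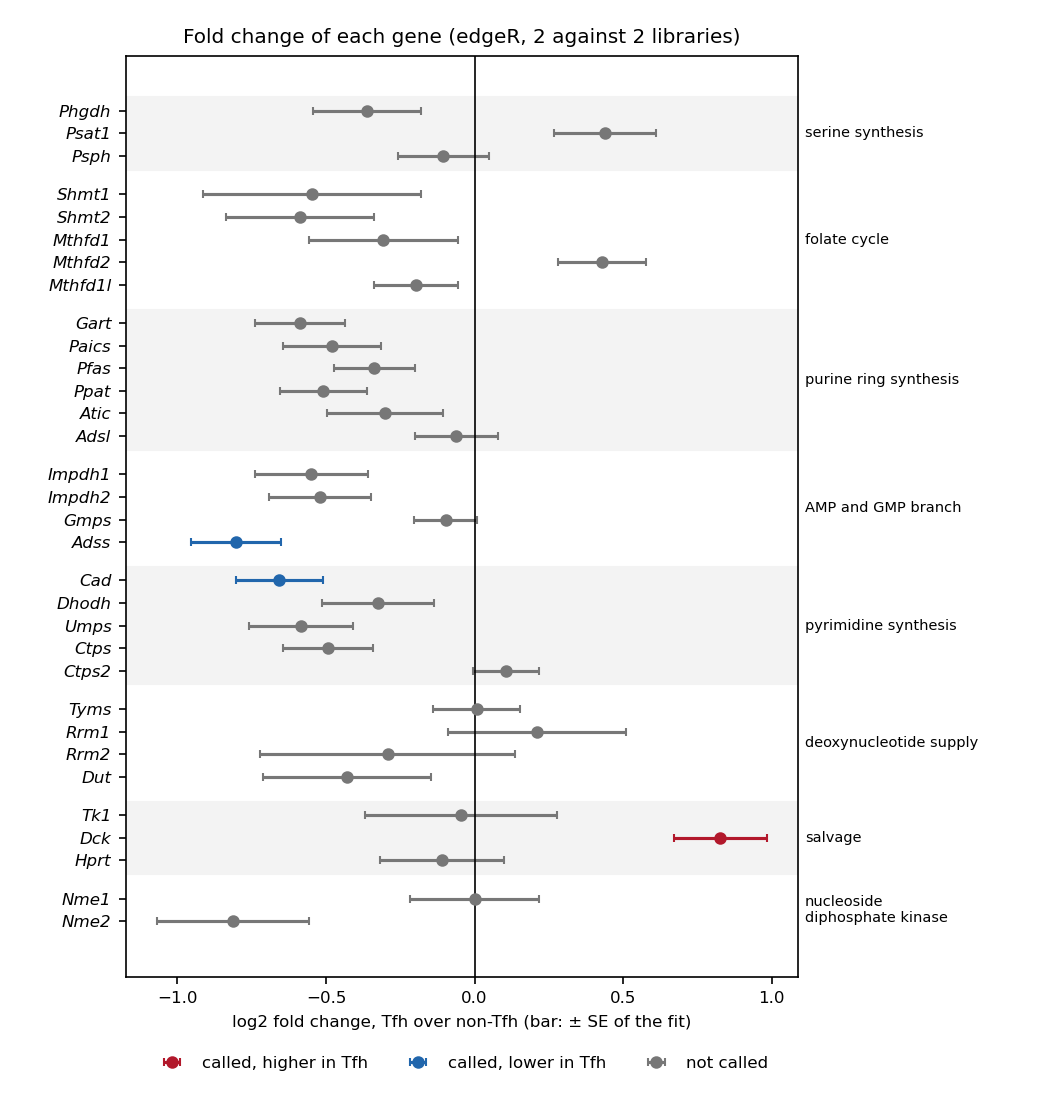
Log2 fold change of each of the 32 genes, Tfh over non-Tfh, on the horizontal axis, with bars of ± 1 SE of the edgeR fit and genes grouped down the page by role. Adss and Cad (blue) stand at -0.80 and -0.66, Dck (red) stands at 0.83, and the 29 other genes (grey) were not called.

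All 6 genes of purine ring synthesis had negative log2 fold changes, where 50.7% of all genes tested did, with a median of -0.41. None was called by this edgeR fit, DESeq2 or limma-voom. An unadjusted p under 0.05 was found for 4 of the 6, and for 2571 of the 11702 genes tested. Ppat encodes the amidotransferase that commits ribose phosphate to the purine pathway. It had 33.7 and 33.2 CPM in Tfh cells, against 52.2 and 42.8 CPM in non-Tfh cells. The Tfh libraries agreed closely and both lay below the non-Tfh libraries, with a log2 fold change of -0.51 ± 0.147 (SE) and an adjusted p of 0.0954. Gart encodes a multifunctional enzyme of several later steps, among them a transfer of formyl from folate. Its level was 52.0 and 53.3 CPM in Tfh cells and 88.8 and 69.0 CPM in non-Tfh cells. The groups did not overlap, and the log2 fold change was -0.59 ± 0.152 with an adjusted p of 0.0691.

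Paics, a bifunctional carboxylase and ligase of the middle of the pathway, had 73.0 and 64.3 CPM in Tfh cells, against 109 and 82.4 CPM in non-Tfh cells. Pfas, which brings in a glutamine nitrogen, had 45.8 and 50.8 CPM in Tfh cells, against 65.3 and 56.4 CPM in non-Tfh cells. The groups stayed apart for both genes, with log2 fold changes of -0.48 ± 0.166 (adjusted p = 0.149) for Paics and -0.34 ± 0.135 (adjusted p = 0.212) for Pfas. Atic, which performs the last steps to IMP, including the other formyl transfer, had 85.8 and 66.5 CPM in Tfh cells and 108 and 79.8 CPM in non-Tfh cells, so that Tfh T32 exceeded non-Tfh T53. Adsl, a lyase used both in the ring pathway and in the AMP branch, was the gene of the ring with the smallest difference, at 48.2 and 42.4 CPM in Tfh cells and 50.7 and 44.0 CPM in non-Tfh cells (log2 fold change -0.06 ± 0.141). Summed over the 6 genes, the level was 338 and 311 CPM in Tfh cells and 475 and 374 CPM in non-Tfh cells. Ppat and Paics start back to back on chromosome 5 (GRCm38, Ppat on the minus strand at chr5:76913249-76951578, Paics on the plus strand at chr5:76951307-76967509), and 272 exon bases of the pair lie on opposite strands of the same DNA. Whether the counting used strand is not given in the sources used here, so reads from that stretch may be counted for either gene.

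**Figure D2:**
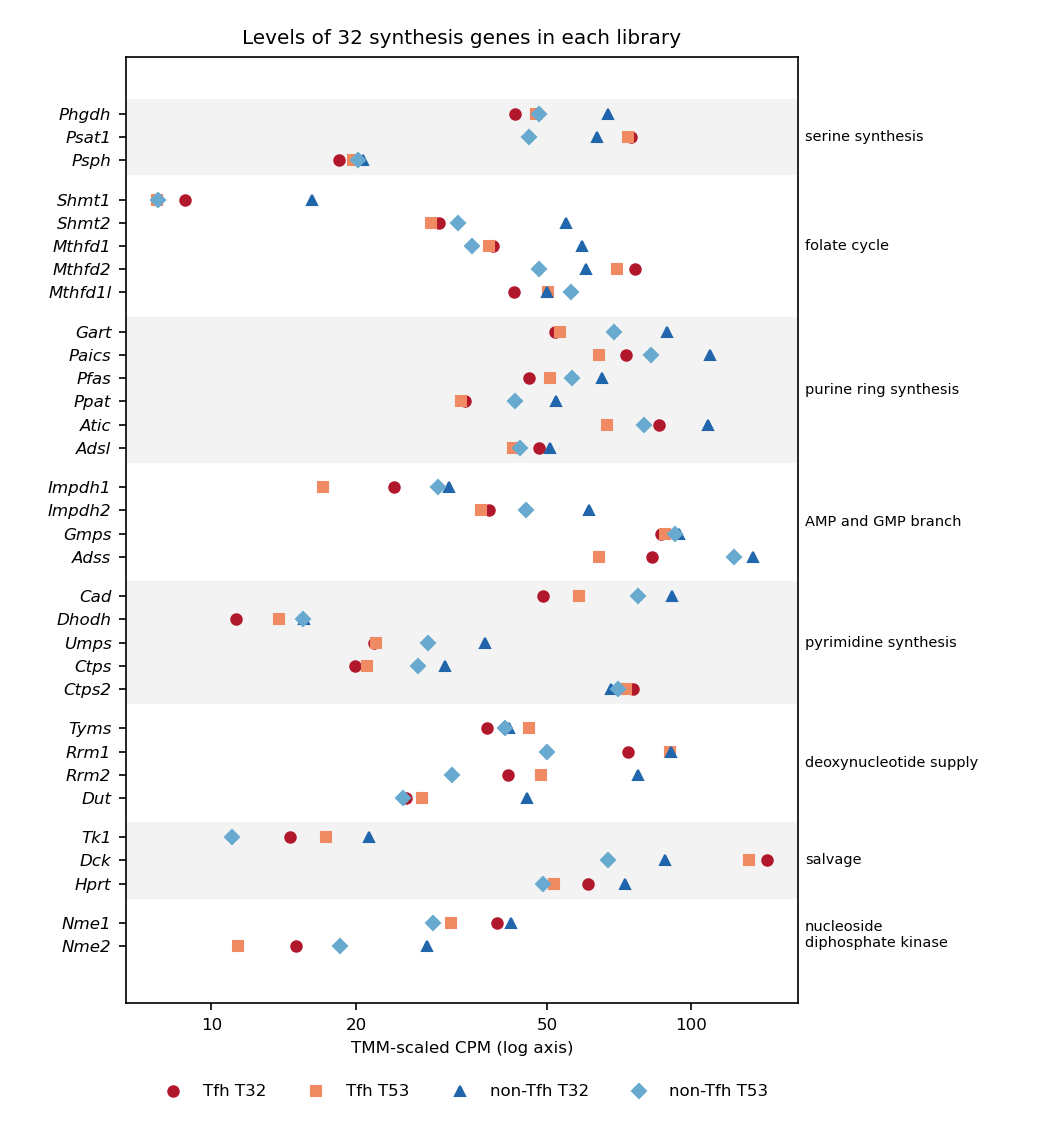
TMM-scaled CPM of the 32 genes in each library on a log axis, with Tfh libraries in reds and non-Tfh libraries in blues. In the purine ring, AMP and GMP and pyrimidine blocks most red points lie left of the blue ones, whereas Rrm2 has both red points between its blue points of 77.3 and 31.7 CPM.

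In all 4 genes of the AMP and GMP branch both Tfh libraries lay below both non-Tfh libraries, where 25.6% of all genes tested did so. Of the 4 genes 1, Adss, was called lower, where 4.02% of all genes tested were. Adss encodes the adenylosuccinate synthetase that turns IMP towards AMP, in most cell types outside muscle. It lies on chromosome 1 at chr1:177762962-177796511 on the minus strand. It had 82.8 and 64.3 CPM in Tfh cells, against 135 and 123 CPM in non-Tfh cells, with no overlap. The Tfh mean was 73.5 ± 13.1 CPM and the non-Tfh mean 129 ± 8.30 CPM (SD, n = 2 each), and Adss was 1.74-fold lower in Tfh cells (log2 fold change -0.80 ± 0.151, edgeR adjusted p = 0.0268). The call was lost without Tfh T53 (adjusted p = 0.124) and without non-Tfh T32 (adjusted p = 0.0577).

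Impdh1 and Impdh2 encode the IMP dehydrogenases at the entry to the GMP branch, and Gmps makes GMP itself. Impdh1 had 24.0 and 17.1 CPM in Tfh cells, against 31.3 and 29.7 CPM in non-Tfh cells (log2 fold change -0.55 ± 0.192, adjusted p = 0.154). Impdh2 had 38.0 and 36.5 CPM in Tfh cells, against 61.3 and 45.3 CPM in non-Tfh cells (log2 fold change -0.52 ± 0.173, adjusted p = 0.135). Neither dehydrogenase was called by this edgeR fit, DESeq2 or limma-voom, although the groups did not overlap for either. For Gmps the gap was small, with 86.4 and 88.0 CPM in Tfh cells and 94.2 and 92.4 CPM in non-Tfh cells (log2 fold change -0.10 ± 0.107). Of the 75-base words of the Impdh2 exons, 34.9% also occur in the pseudogene Impdh2-ps, so the split of reads between these copies is uncertain.

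In pyrimidine synthesis 4 of 5 genes had both Tfh libraries below both non-Tfh libraries, where 25.6% of all genes tested did. Of the 5 genes 1, Cad, was called lower, where 4.02% of all genes tested were. Cad encodes the large enzyme that carries out the opening steps of the pyrimidine ring, and lies on chromosome 5 at chr5:31054780-31078479 on the plus strand. It had 49.1 and 58.3 CPM in Tfh cells, against 91.2 and 77.4 CPM in non-Tfh cells. The gap between the groups was wider than the spread in either. The Tfh mean was 53.7 ± 6.53 CPM and the non-Tfh mean 84.3 ± 9.70 CPM (SD, n = 2 each), a level 1.58-fold lower in Tfh cells (log2 fold change -0.66 ± 0.146, edgeR adjusted p = 0.0451). That p is close to the threshold: the call was lost without Tfh T32 (0.207), without Tfh T53 (0.0817), without non-Tfh T32 (0.108), with limma-voom (0.0519) and without edgeR's robust option (0.0503).

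Dhodh, which encodes the mitochondrial enzyme that oxidises dihydroorotate, had 11.2 and 13.8 CPM in Tfh cells, against 15.6 and 15.5 CPM in non-Tfh cells. Umps, whose product completes UMP, had 21.8 and 22.0 CPM in Tfh cells, against 37.1 and 28.3 CPM in non-Tfh cells. Both genes had lower values in each Tfh library than in either non-Tfh library, with log2 fold changes of -0.33 ± 0.189 (adjusted p = 0.395) for Dhodh and -0.58 ± 0.176 (adjusted p = 0.107) for Umps. The last step, from UTP to CTP, is carried out by the products of Ctps and Ctps2. Ctps had 19.9 and 21.1 CPM in Tfh cells, against 30.7 and 27.0 CPM in non-Tfh cells (log2 fold change -0.49 ± 0.151, adjusted p = 0.111). Ctps2 was the exception of the group, with 75.7 and 73.2 CPM in Tfh cells and 68.2 and 70.3 CPM in non-Tfh cells and a log2 fold change of 0.11 ± 0.111 (adjusted p = 0.656).

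These values depended on which non-Tfh library they were set against. Against non-Tfh T53 alone, both Tfh libraries were lower for 17 and higher for 11 of the 32 genes, where 38.4% and 39.9% of all genes tested were. Against non-Tfh T32 alone, both were lower for 26 and higher for 4 of the 32 genes, where 39.9% and 38.3% of all genes tested were.

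In deoxynucleotide supply the widest gaps lay between the non-Tfh libraries, which also differed in proliferation genes, except for Tyms. Rrm1 and Rrm2 encode the subunits of ribonucleotide reductase, the enzyme that makes deoxynucleotides. Rrm2 had 41.5 and 48.6 CPM in Tfh cells, and 77.3 and 31.7 CPM in non-Tfh cells. Rrm1 had 73.7 and 90.3 CPM in Tfh cells, and 90.9 and 49.9 CPM in non-Tfh cells. For both, non-Tfh T32 was the highest library and non-Tfh T53 the lowest, and the log2 fold changes, -0.29 ± 0.429 for Rrm2 and 0.21 ± 0.299 for Rrm1, were smaller than their standard errors. Dut, whose product removes dUTP, had 25.4 and 27.4 CPM in Tfh cells and 45.4 and 25.1 CPM in non-Tfh cells (log2 fold change -0.43 ± 0.283). Tyms, the thymidylate synthase that also consumes a folate-bound carbon, had 37.5 and 45.9 CPM in Tfh cells and 41.6 and 40.9 CPM in non-Tfh cells (log2 fold change 0.01 ± 0.147). None of the 4 genes was called, and none had an unadjusted p under 0.05.

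The 30 genes of the S phase list summed to 1203 and 1216 CPM in Tfh cells, and to 1431 and 887 CPM in non-Tfh cells. The 24 genes of the G2 and mitosis list summed to 1163 and 1485 CPM in Tfh cells, and to 1371 and 706 CPM in non-Tfh cells. In both lists the non-Tfh libraries stood far apart, with T32 the higher, and the Tfh sums of the S phase list lay between them. The log2 fold change was positive for 21 of the 24 G2 and mitosis genes, with a median of 0.38. It was positive for 15 of the 30 S phase genes, with a median of -0.01, and for 5772 of the 11702 genes tested. Mki67, the proliferation marker, had 348 and 494 CPM in Tfh cells and 406 and 251 CPM in non-Tfh cells, and Top2a, the mitotic topoisomerase, had 232 and 243 CPM in Tfh cells and 272 and 135 CPM in non-Tfh cells. Mcm6 and Mcm4, subunits of the replicative helicase, had 226 and 214 CPM and 127 and 108 CPM in Tfh cells, and 170 and 107 CPM and 129 and 95.1 CPM in non-Tfh cells. Of the 54 genes of both lists, edgeR and limma-voom called none and DESeq2 called Mcm6 higher. In edgeR 3 of the 54 had an unadjusted p under 0.05, as did 2571 of the 11702 genes tested. With each library left out in turn, log2 fold changes ran from -0.20 to 0.81 for Top2a and from 0.049 to 0.75 for Mki67. They ran from 0.37 to 1.04 for Mcm6 and from -0.14 to 0.31 for Mcm4. The part of this difference between the non-Tfh libraries in the fold changes of the 32 genes was not tested.

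**Figure D3:**
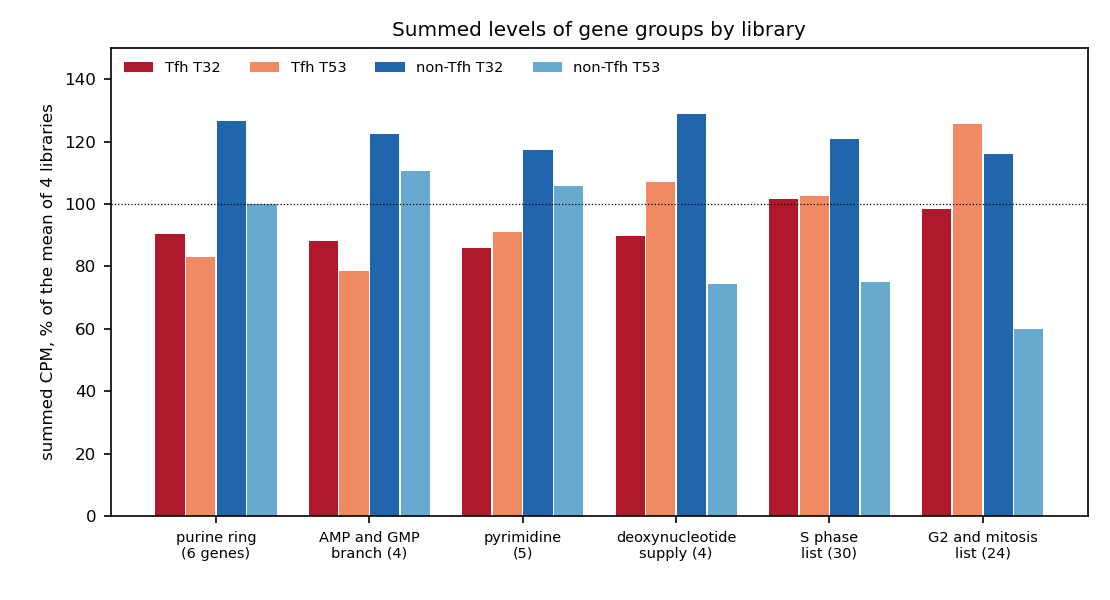
Summed CPM of gene groups in each library, drawn as a percentage of the mean over the 4 libraries. The purine ring, AMP and GMP and pyrimidine sums are lower in both Tfh libraries than in either non-Tfh library. The groups overlap for the deoxynucleotide sum (Tfh libraries at 178 and 212 CPM, non-Tfh libraries at 255 and 148 CPM) and for both proliferation lists. Every sum drawn differs more in CPM within the non-Tfh group than within the Tfh group.

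Of the 3 salvage genes 1, Dck, was called higher, where 4.47% of all genes tested were. The others were not called. Dck encodes deoxycytidine kinase, which returns deoxycytidine, and other deoxynucleosides, to the nucleotide pool. The gene lies on chromosome 5 at chr5:88764996-88783281 on the plus strand. It had 144 and 132 CPM in Tfh cells, against 88.2 and 66.9 CPM in non-Tfh cells, without overlap. The Tfh mean was 138 ± 8.84 CPM and the non-Tfh mean 77.5 ± 15.1 CPM (SD, n = 2 each), so that Dck was 1.77-fold higher in Tfh cells (log2 fold change 0.83 ± 0.158, edgeR adjusted p = 0.0278). Leaving out a Tfh library ended the call, with an adjusted p of 0.0872 without T32 and 0.052 without T53, and the log2 fold change stayed between 0.65 and 1.05 whichever library was left out.

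Tk1, the thymidine kinase of S phase cells, had 14.6 and 17.3 CPM in Tfh cells and 21.3 and 11.0 CPM in non-Tfh cells, the same wide gap between the non-Tfh libraries as for Rrm2. Hprt, which salvages hypoxanthine and guanine, had 61.0 and 51.7 CPM in Tfh cells and 72.7 and 49.0 CPM in non-Tfh cells. Neither gene separated the groups, with log2 fold changes of -0.05 ± 0.322 for Tk1 and -0.11 ± 0.208 for Hprt.

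Serine synthesis was split, and none of its 3 genes was called by the edgeR fit of all 4 libraries, DESeq2 or limma-voom. In edgeR 1 of the 3 had an unadjusted p under 0.05, as did 2571 of the 11702 genes tested. Phgdh, which diverts a glycolytic intermediate to serine, had 42.9 and 47.3 CPM in Tfh cells, against 67.1 and 48.2 CPM in non-Tfh cells (log2 fold change -0.36 ± 0.182, adjusted p = 0.318). Psat1, the transaminase of the next step, had 74.8 and 73.7 CPM in Tfh cells, against 63.5 and 45.9 CPM in non-Tfh cells (log2 fold change 0.44 ± 0.171, adjusted p = 0.202). These enzymes of consecutive steps thus had point estimates of opposite sign. With a library left out, the log2 fold changes ran from -0.58 to -0.10 for Phgdh and from 0.23 to 0.70 for Psat1. Psph, the phosphatase that releases serine, differed little, with 18.4 and 19.7 CPM in Tfh cells and 20.7 and 20.2 CPM in non-Tfh cells. It shares 452 exon bases with Cct6a on the opposite strand, and Cct6a had more counts in every library. Because the use of strand in the counting is not given, the Psph count is uncertain over that stretch. Of the 75-base words of the Phgdh exons, 35.8% also occur elsewhere among annotated exons, mostly in Gm7901, so its reads may be split.

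The folate enzymes were split in the same way, with no call among 5 genes by the edgeR fit of all 4 libraries, DESeq2 or limma-voom. In edgeR 1 of the 5 had an unadjusted p under 0.05, as did 2571 of the 11702 genes tested. Mthfd2, a mitochondrial folate enzyme, had 76.2 and 69.9 CPM in Tfh cells, against 60.3 and 48.1 CPM in non-Tfh cells (log2 fold change 0.43 ± 0.148, adjusted p = 0.149). Shmt2, which transfers the serine carbon to folate in mitochondria, had 29.7 and 28.6 CPM in Tfh cells, against 54.7 and 32.7 CPM in non-Tfh cells (log2 fold change -0.59 ± 0.250, adjusted p = 0.243). Thus Mthfd2 lay above and Shmt2 below in both Tfh libraries, although both act in the mitochondrial arm. With a library left out, the log2 fold changes ran from 0.28 to 0.61 for Mthfd2 and from -0.90 to -0.16 for Shmt2. Mthfd1l, which releases formate in mitochondria, had 42.6 and 50.3 CPM in Tfh cells and 50.1 and 56.2 CPM in non-Tfh cells. Shmt1, the cytosolic counterpart of Shmt2, had 8.80 and 7.69 CPM in Tfh cells and 16.2 and 7.76 CPM in non-Tfh cells. Mthfd1, which makes formyl folate in the cytosol, had 38.5 and 37.9 CPM in Tfh cells and 59.3 and 34.8 CPM in non-Tfh cells. For these 3 genes the groups overlapped, and for Shmt1 and Mthfd1 the non-Tfh library T32 alone stood out. Shmt1 shares 184 exon bases on the opposite strand with Smcr8, which had more counts in every library, so the doubt on strand holds here too.

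Nme1 and Nme2 encode nucleoside diphosphate kinases, which pass phosphate between nucleotides, and neighbour each other on chromosome 11. Nme2 had 15.0 and 11.4 CPM in Tfh cells, against 28.2 and 18.5 CPM in non-Tfh cells (log2 fold change -0.81 ± 0.256, adjusted p = 0.12). Nme1 had 39.4 and 31.6 CPM in Tfh cells and 42.2 and 28.9 CPM in non-Tfh cells (log2 fold change 0.00 ± 0.217). The groups were apart for Nme2 and overlapped for Nme1. The readthrough gene Gm20390 shares 573 exon bases with Nme2 and 418 with Nme1 on the same strand and is listed at 0 counts in every library, so reads of the shared bases may be missing from both genes.

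Per length of exon, in length-scaled units that sum to the same total in each library (TPM), the 32 genes spanned a wide range in Tfh cells. Hprt was the most abundant at 116 ± 3.94 TPM in Tfh cells and 134 ± 22.8 TPM in non-Tfh cells (SD, n = 2 each). Dck was next in Tfh cells at 96.8 ± 1.81 TPM, but had 58.4 ± 5.13 TPM in non-Tfh cells, below Paics (58.0 ± 0.397 TPM in Tfh cells and 87.0 ± 7.99 TPM in non-Tfh cells) and Adss (42.9 ± 4.11 TPM in Tfh cells and 81.5 ± 3.51 TPM in non-Tfh cells). The place of Dck above Paics in Tfh cells and below it in non-Tfh cells was wider than the spread of either gene. At the low end, Dhodh had 5.30 ± 1.20 TPM in Tfh cells and 7.07 ± 0.742 TPM in non-Tfh cells, and Shmt1 had 5.63 ± 0.0712 TPM in Tfh cells and 8.66 ± 3.49 TPM in non-Tfh cells. These neighbours in the order did not differ beyond their spread.

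Enzyme pairs that catalyse the same or linked steps were compared by the share of the named gene in the summed TPM of its pair, a measure that library scaling does not touch. Ctps made up 27.3% and 29.1% of the Ctps and Ctps2 total in Tfh cells, against 39.1% and 35.3% in non-Tfh cells. Mthfd1 made up 28.4% and 29.9% of the Mthfd1 and Mthfd2 total in Tfh cells, against 43.5% and 36.2% in non-Tfh cells. Both shares were lower in each Tfh library than in either non-Tfh library. Nme1 made up 47.9% and 49.4% of the Nme1 and Nme2 total in Tfh cells, against 34.4% and 35.3% in non-Tfh cells, also without overlap but with the doubt on shared exons. Impdh1 made up 37.2% and 30.5% of the dehydrogenase total in Tfh cells and 32.3% and 38.0% in non-Tfh cells, and Shmt1 made up 19.1% and 17.7% of the Shmt1 and Shmt2 total in Tfh cells and 19.2% and 16.0% in non-Tfh cells, so these shares overlapped. The exact two-sided permutation test gave p = 0.333 for the Ctps, Mthfd1 and Nme1 pairs, the smallest value that 2 against 2 libraries allow, and p = 0.556 after adjustment over the 5 pairs.

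**Figure D4:**
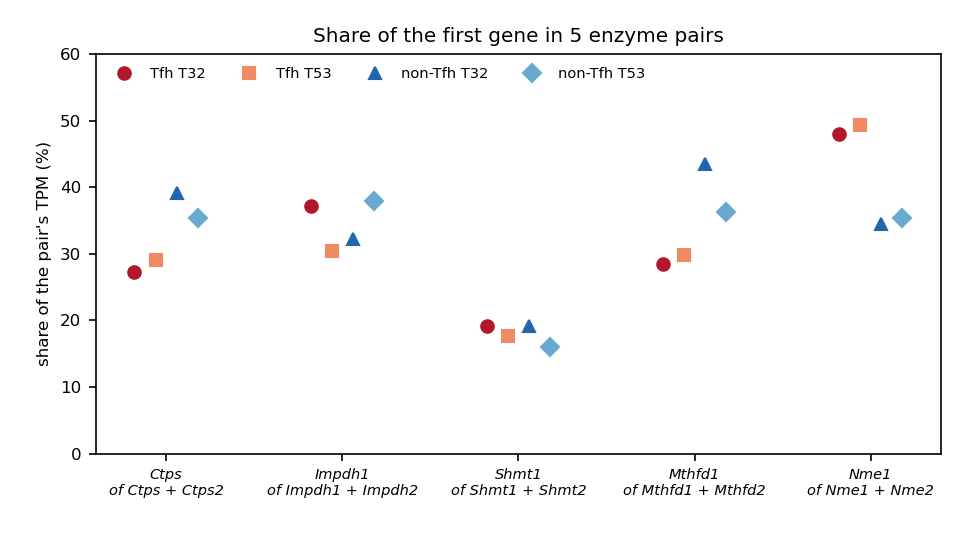
Share (%) of the first-named gene in the summed TPM of 5 enzyme pairs, with 1 point per library, Tfh libraries in reds and non-Tfh libraries in blues. The points of the groups are apart for the Ctps, Mthfd1 and Nme1 pairs and overlap for the Impdh1 and Shmt1 pairs.

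The DNA upstream of the 3 called genes is shown so that the promoters of the genes that moved can be compared. Sequences are from RefSeq on GRCm38 and run 5′ to 3′ on the gene's strand over 150 to 21 bases before the RefSeq start. Capitals mark the GC box GGGCGG, or CCGCCC where it lies on the other strand. The stretches are chr1:177796530-177796659 on the minus strand for Adss, chr5:31054630-31054759 on the plus strand for Cad and chr5:88764863-88764992 on the plus strand for Dck.
Adss: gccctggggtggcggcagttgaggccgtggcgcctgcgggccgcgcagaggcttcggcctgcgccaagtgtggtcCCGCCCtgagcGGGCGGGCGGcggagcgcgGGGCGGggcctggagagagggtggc
Cad: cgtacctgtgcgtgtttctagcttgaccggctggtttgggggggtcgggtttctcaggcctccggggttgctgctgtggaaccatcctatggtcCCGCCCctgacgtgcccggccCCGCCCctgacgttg
Dck: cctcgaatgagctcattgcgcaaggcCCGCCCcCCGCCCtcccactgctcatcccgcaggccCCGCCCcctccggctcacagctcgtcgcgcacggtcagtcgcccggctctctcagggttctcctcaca

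The genes that fell and the gene that rose share this feature. The stretches are 80.0%, 66.2% and 70.8% G and C for Adss, Cad and Dck. The same stretch of all promoter windows had a median of 53.8% and an upper quartile of 63.1%. Those windows include genes that were not tested, and the share in tested genes alone was not measured. In windows of 250 bases before to 50 after the start, searched on both strands, GGGCGG was found in 24 of the 30 members that have a window (80.0%), in 69.7% of tested genes and in 38.2% of all genes. CCAAT was found in 13 of 30 (43.3%), 43.5% and 41.1%. The E2F-type motif TTTNNCGC was found in 5 of 30 (16.7%), 10.2% and 5.93%, in Nme1, Ppat, Psph, Shmt2 and Tyms. The Atf4-type motif TGATGNAA was found in 0 of 30, 2.65% and 4.51%.

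The E-box CACGTG, a motif that Myc with its partner Max is known to bind, was found in 5 of 30 members (16.7%), 12.2% of tested genes and 8.09% of all genes. The 5 occurrences are shown with 12 bases on each side and the motif in capitals. They lie at chr1:71557137-71557166 for Atic, chr9:108560314-108560343 for Impdh2, chr11:93968273-93968302 on the minus strand for Nme1, chr5:76951087-76951116 for Paics and chr5:30073669-30073698 on the minus strand for Tyms, with the others on the plus strand.
Atic: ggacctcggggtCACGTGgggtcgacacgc
Impdh2: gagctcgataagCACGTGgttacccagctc
Nme1: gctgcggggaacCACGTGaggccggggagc
Paics: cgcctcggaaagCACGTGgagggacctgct
Tyms: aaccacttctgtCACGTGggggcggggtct

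None of these 5 genes was called by the edgeR fit of all 4 libraries, and their log2 fold changes ran between -0.52 for Impdh2 and 0.01 for Tyms. Whether they differ from each other was not tested. A match of letters is a description of the DNA and does not show a bound factor. Among 22 genes of the Myc, E2f and Atf4 families and their partners, 19 were tested. None was called by the edgeR fit of all 4 libraries or by limma-voom, while DESeq2 called Myc lower. In edgeR 5 of the 19 had an unadjusted p under 0.05, as did 2571 of the 11702 genes tested. Myc, singled out after its values were seen, had 21.4 and 12.1 CPM in Tfh cells, against 34.6 and 36.5 CPM in non-Tfh cells. The groups did not overlap, and the log2 fold change was -1.05 ± 0.260 with an adjusted p of 0.0634 in edgeR, 0.0634 in limma-voom and 0.0106 in DESeq2. In edgeR the log2 fold change of Myc was -1.55 without Tfh T32 (adjusted p = 0.0103) and -0.72 without Tfh T53 (adjusted p = 0.143). The most abundant of these factors were Rb1, at 120 and 137 CPM in Tfh cells and 115 and 109 CPM in non-Tfh cells, and Rbl2, at 143 and 148 CPM in Tfh cells and 181 and 165 CPM in non-Tfh cells. Both encode pocket proteins that restrain E2f factors, and neither was called (log2 fold changes 0.19 ± 0.120 and -0.25 ± 0.114).

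Other genes of these pathways were listed as well, 106 symbols of which 87 could be tested. Of the 87 genes 2 rose and 2 fell, where 4.47% and 4.02% of all genes tested did. These counts of calls are not above those of all genes tested. Both Tfh libraries lay below both non-Tfh libraries for 27 of the 87 genes and above them for 14. Over all genes tested the shares were 25.6% and 26.6%. The median log2 fold change of the 87 genes was -0.08. Slc46a1, which encodes the proton-coupled folate transporter, had 4.52 and 5.07 CPM in Tfh cells, against 0.894 and 0.787 CPM in non-Tfh cells. Its non-Tfh level rests on 12 and 7 counts, and the log2 fold change was 2.48 ± 0.369 with an adjusted p of 0.0129. This call was kept with each library left out. Prps2, a synthetase of the activated ribose phosphate that Ppat uses, had 168 and 161 CPM in Tfh cells, against 117 and 99.7 CPM in non-Tfh cells with a log2 fold change of 0.60 ± 0.126 (adjusted p = 0.0372).

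The genes that fell act on nucleosides and deoxynucleotides. Samhd1, which breaks down deoxynucleoside triphosphates, had 303 and 262 CPM in Tfh cells, against 499 and 459 CPM in non-Tfh cells (log2 fold change -0.76 ± 0.135, adjusted p = 0.0218). Adk, the adenosine kinase, had 29.8 and 26.7 CPM in Tfh cells, against 52.1 and 42.0 CPM in non-Tfh cells (log2 fold change -0.73 ± 0.159, adjusted p = 0.0422). Both genes had all Tfh values below all non-Tfh values. Leaving out single libraries gave adjusted p-values up to 0.138 for Prps2, 0.125 for Samhd1 and 0.202 for Adk.

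Of the lists without a call in the edgeR fit of all 4 libraries, abundant genes are given as examples. The amino acid transporter gene Slc38a1 had 359 and 366 CPM in Tfh cells, against 291 and 268 CPM in non-Tfh cells with a log2 fold change of 0.38 ± 0.119 (adjusted p = 0.121). Its list, of serine, glycine and amino acid supply, leaned the other way, with a median log2 fold change of -0.16. The log2 fold change was negative for 11 of its 17 tested genes, and for 50.7% of all genes tested. The nucleoside transporter gene Slc29a1 had 88.9 and 108 CPM in Tfh cells, against 59.8 and 70.6 CPM in non-Tfh cells (log2 fold change 0.59 ± 0.150, adjusted p = 0.0641), while Slc28a2, another nucleoside transporter gene, had 147 and 158 CPM in Tfh cells and 146 and 166 CPM in non-Tfh cells. For Slc38a1 and Slc29a1 both Tfh libraries lay above both non-Tfh libraries, and DESeq2 called Slc29a1 higher (adjusted p = 0.0472). Rrm2b, the reductase subunit used outside S phase, had 31.3 and 27.8 CPM in Tfh cells, against 36.7 and 42.6 CPM in non-Tfh cells (log2 fold change -0.42 ± 0.149). Dpysl2, a relative of dihydropyrimidinase, had 124 and 79.1 CPM in Tfh cells, against 182 and 144 CPM in non-Tfh cells (log2 fold change -0.68 ± 0.233), and was called lower by DESeq2 (adjusted p = 0.0469) and not by edgeR (0.156). Uckl1 (log2 fold change -0.04 ± 0.112) and Nme7 (0.03 ± 0.288) differed by less than their standard errors.

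Fold changes with each library left out show which of the 32 genes hang on a single library. Without non-Tfh T53 the median log2 fold change of the 32 genes was -0.54, and Rrm2 stood at -0.79. Without non-Tfh T32 the median was -0.08, and Rrm2, at a log2 fold change of 0.50, and Tk1, at 0.52, had positive signs. The log2 fold changes of Gart, Ppat, Umps, Ctps, Nme2, Cad and Adss stayed at -0.35 or below with any library left out. Without Tfh T32 the median log2 fold change of the 32 genes was -0.27, and without Tfh T53 it was -0.35. Which of the 32 genes were called also changed with the library left out.

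**Figure D5:**
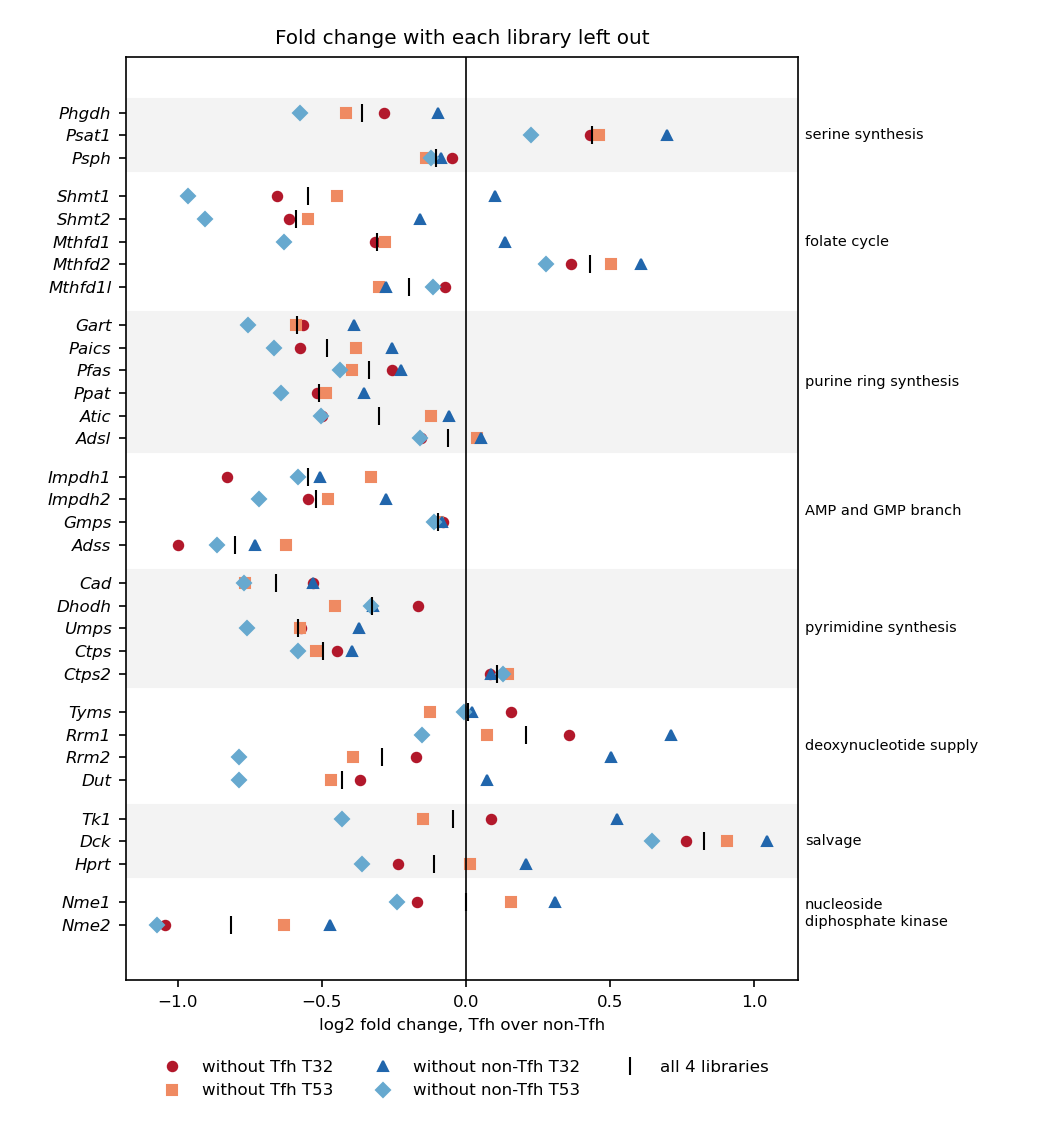
Log2 fold change of the 32 genes, Tfh over non-Tfh, with all 4 libraries (black bars) and with each library left out (coloured points named in the legend). Points of Adss, Cad, Gart and Ppat stay left of 0, whereas those of Rrm2 lie between -0.79 without non-Tfh T53 and 0.50 without non-Tfh T32.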

How the data were processed

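Gene counts of 4 libraries, 2 of Tfh and 2 of non-Tfh cells, were used as the authors deposited them, 1 whole-number count per Ensembl gene and library. TopHat2, Bowtie2, HTSeq and the build GRCm38 (mm10) are named per the submitters' processing notes. Their versions, settings, annotation and use of strand are not given in the sources used here. Symbols, exon lengths and overlaps came from the GENCODE annotation supplied for GRCm38, which matched 37607 of 39179 identifiers. The 1572 others hold 0.209% to 0.228% of the counts and were kept in library totals.

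The test was edgeR 4.0.16 (R 4.3.3), with filterByExpr, TMM scaling, robust quasi-likelihood fits and two-sided tests, and Benjamini-Hochberg adjustment at 0.05 over 11702 genes, of which 523 rose and 471 fell (2571 at an unadjusted p under 0.05). The fit had 2 residual degrees of freedom. CPM values use TMM-scaled totals, TPM values use exon lengths, and the SE is the log2 fold change divided by the square root of F. At these depths 1 count is worth 0.0748 to 0.175 CPM, which limits low genes most. The fitting script was tested on simulated data. Alternatives were other scalings, DESeq2 1.42.0, limma-voom (limma 3.58.1), other count filters, the robust option off, a replicate block and each library left out.

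The members and lists were chosen with earlier results of these data known. Named were all 32 members, the sorting genes, up to 4 called genes of each list by lowest p, the 2 most abundant genes of a list without a call, and genes whose reads bear on a member, except that some items this rule takes are not reported here. Of 257 listed symbols 255 were matched. The remaining marker lists were as follows in summed CPM. CD8 T cell markers had 6.20 and 3.84 in Tfh and 4.32 and 3.60 in non-Tfh libraries, NK cell markers 44.6 and 57.3 in Tfh and 19.7 and 12.5 in non-Tfh libraries, and germinal centre B cell markers 104 and 114 in Tfh and 45.3 and 35.9 in non-Tfh libraries. Plasma cell markers had 90.7 and 87.5 in Tfh and 75.2 and 87.3 in non-Tfh libraries, macrophage and monocyte markers 4.94 and 4.89 in Tfh and 2.61 and 7.08 in non-Tfh libraries, dendritic cell markers 2.60 and 3.14 in Tfh and 3.20 and 6.74 in non-Tfh libraries, and stromal and endothelial markers 237 and 231 in Tfh and 212 and 229 in non-Tfh libraries.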

Additional observations from a re-analysis of the deposited data

How the results depend on the processing

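With 2 libraries per group, counts of calls moved with the choice of fit. Of the 32 genes, 2 fell and 1 rose; 10 fell and 3 rose without a count filter, and 10 fell and 2 rose with a replicate block, while limma-voom and the fit without the robust option each gave 1 lower. Beside Adss, Cad and Dck, both the block and the fit without a filter called Gart, Impdh1, Impdh2, Nme2, Paics, Ppat and Umps lower and Mthfd2 higher; the block also called Ctps lower, and the fit without a filter called Shmt2 lower and Psat1 higher. Of the other named genes, both called Myc and Dpysl2 lower (adjusted p = 0.0462 for Myc and 0.00433 for Dpysl2 with the block) and Slc29a1 higher, and the block called Slc38a1 higher. Leaving out 1 library gave a median log2 fold change of -0.54 to -0.08 over the 32 genes. Groups then did not overlap for 17 to 26 genes lower and 4 to 11 higher. The shares of all genes tested also grew, from 25.6% to 35.7% to 39.9% lower and from 26.6% to 36.3% to 39.9% higher. Over all genes, 523 rose and 471 fell, against 1006 and 980 without a filter, 1069 and 1051 with the replicate block, and 298 to 454 and 247 to 435 with a library left out. Of the other pathway genes 2 rose and 2 fell; 5 rose with DESeq2, 1 fell with limma-voom, 5 rose and 11 fell without a filter, 1 rose at a minimum of 5 CPM, 6 rose and 12 fell with the block, and 1 to 3 rose and 0 to 8 fell with a library left out. Of the proliferation genes none was called; 1 rose with DESeq2, 4 rose and 2 fell without a filter, and 0 to 11 rose and 0 to 4 fell with a library left out. Deviations of same-numbered libraries correlated at 0.37 over genes, with only 2 pairs. The labels do not say whether the numbers pair the libraries, and this was not tested. Without 1 library, the lone library of its group is assumed to vary like the other group. The causes were not tested. Signs reversed for uncalled genes near 0: Nme1 at -0.0048 (RLE scaling), -0.0084 (DESeq2) and -0.0047 (no filter), and Tyms at -0.0015 (DESeq2), -0.020 (limma-voom) and -0.0013 (block). With a library left out, log2 fold changes that changed sign ran -0.43 to 0.52 for Tk1, -0.24 to 0.31 for Nme1, -0.12 to 0.15 for Nme7, -0.12 to 0.066 for Slc28a2, -0.14 to 0.31 for Mcm4, -0.13 to 0.16 for Tyms, -0.16 to 0.051 for Adsl, -0.36 to 0.21 for Hprt, -0.97 to 0.10 for Shmt1, -0.63 to 0.14 for Mthfd1, -0.79 to 0.50 for Rrm2, -0.79 to 0.074 for Dut, -0.15 to 0.71 for Rrm1 and -0.20 to 0.81 for Top2a. Other single-gene values kept their direction.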
